A study of Mus musculus with 98 samples.

Results

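Intertypical thymic epithelial cells (TEC) are the cells that carry the deposited label ItTEC in a single-cell data set of newborn mouse thymic stroma. The authors assigned the label by clustering and label transfer, and it was used without change. It marked 1166 of 21451 cells, and 9083 of those cells carried a TEC label. The thymic stroma was captured at P0 from *Tbx1*+/-*Crkl*+/- mice (HET, n = 3) and WT littermates (n = 3). The HET mice carried 1 lacZ knock-in allele of *Tbx1* and 1 germline null allele of *Crkl*, so every cell of the body was heterozygous, and the mice model the human 22q11.2 deletion syndrome only for these genes. Live cells negative for Ter119 and CD45 had been sorted to deplete red blood cells and leukocytes, though 26 to 237 cells per library carried a thymocyte label (Thy). RNA-seq of sorted TEC of WT mice (24 libraries, 6 in each of 4 groups) was used beside it. These groups were cortical TEC (cTEC) and medullary TEC (mTEC) at P0, and medullary TEC labelled mTEClo or mTEChi at 4 weeks. The sources used here do not give the gate of mTEClo and mTEChi, read here as low and high MHC class II.

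The epithelium of the thymus is divided into a cortex, where thymocytes are positively selected, and a medulla, where self antigens are presented to delete autoreactive cells. The basal keratins *Krt5* and *Krt14* and the chemokine *Ccl21a* are read here as markers of TEC at the junction of these compartments and of medullary TEC low in MHC class II. *Ccl21a* is a ligand of CCR7 that draws positively selected thymocytes into the medulla. Intertypical TEC is a name from single-cell studies for cells between the compartments. They share transcripts with both compartments and have been discussed as a source of mature TEC.

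The 3 HET libraries held 39, 366 and 97 ItTEC, and the WT libraries 61 to 436. UMIs summed over the ItTEC of a library ran from 117778 to 1449270, so that 1 UMI equalled 8.49 CPM (UMIs scaled to a fixed total) in the shallowest sum and 0.690 CPM in the deepest. All levels below are CPM of such sums, each library given in the order HET 1, 2 and 3, then WT 1, 2 and 3. HET library 2 stood apart. Its ItTEC had a median of 1829 UMIs against 2326 to 2842 in the other 5 libraries, 2.60% mitochondrial UMIs against 1.18 to 1.92%, and the highest summed CPM of fibroblast, endothelial, mural, thymocyte, myeloid and red blood cell genes. No cell barcode was shared among the ItTEC of any pair of libraries. The targeted genes gave no check of the genotype labels, because the sources used here do not say whether the counted 3′ ends lie outside the disrupted parts. Over all cells *Tbx1* was at 0, 0, 0.872, 1.79, 0.441 and 0.605 CPM and *Crkl* at 24.1, 23.6, 26.9, 22.99, 25.1 and 18.4 CPM, so *Crkl* counts in the libraries labelled HET were not below those labelled WT. In ItTEC, 1 UMI of *Tbx1* was counted in all 6 libraries together and *Crkl* was too low to test.

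The label was first set against its markers. *Krt5* (GRCm38 chr15:101707070-101712898, minus strand), a basal keratin, was at 883, 336, 473, 952, 931 and 627 CPM in ItTEC. *Ccl21a* (chr4:42772860-42773993, minus strand) was at 6037, 1985, 2258, 6095, 6814 and 4175 CPM. Both had their highest level of the 5 TEC labels with at least 20 cells in every library in ItTEC in every library. In WT the mean of *Ccl21a* was 5694 ± 1365 (SD, n = 3) CPM in ItTEC, 2398 in proliferating TEC (PrTEC), 640 in mature cortical TEC (McTEC), 462 in mature medullary TEC (MmTEC), 270 in perinatal cortical TEC (PcTEC) and 117 in endothelial labels. For *Krt5* the same means were 837 ± 181.6 (SD, n = 3) in ItTEC, 328 in PrTEC, 310 in McTEC, 131.9 in PcTEC, 87.6 in MmTEC and 18.7 in endothelial labels. Since the labels were made from these same counts, differences between labels are given as a description, with no test. *Ccl21a* has near-identical copies in the mouse genome, so reads of those copies may be divided between them or lost.

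**Figure D1:**
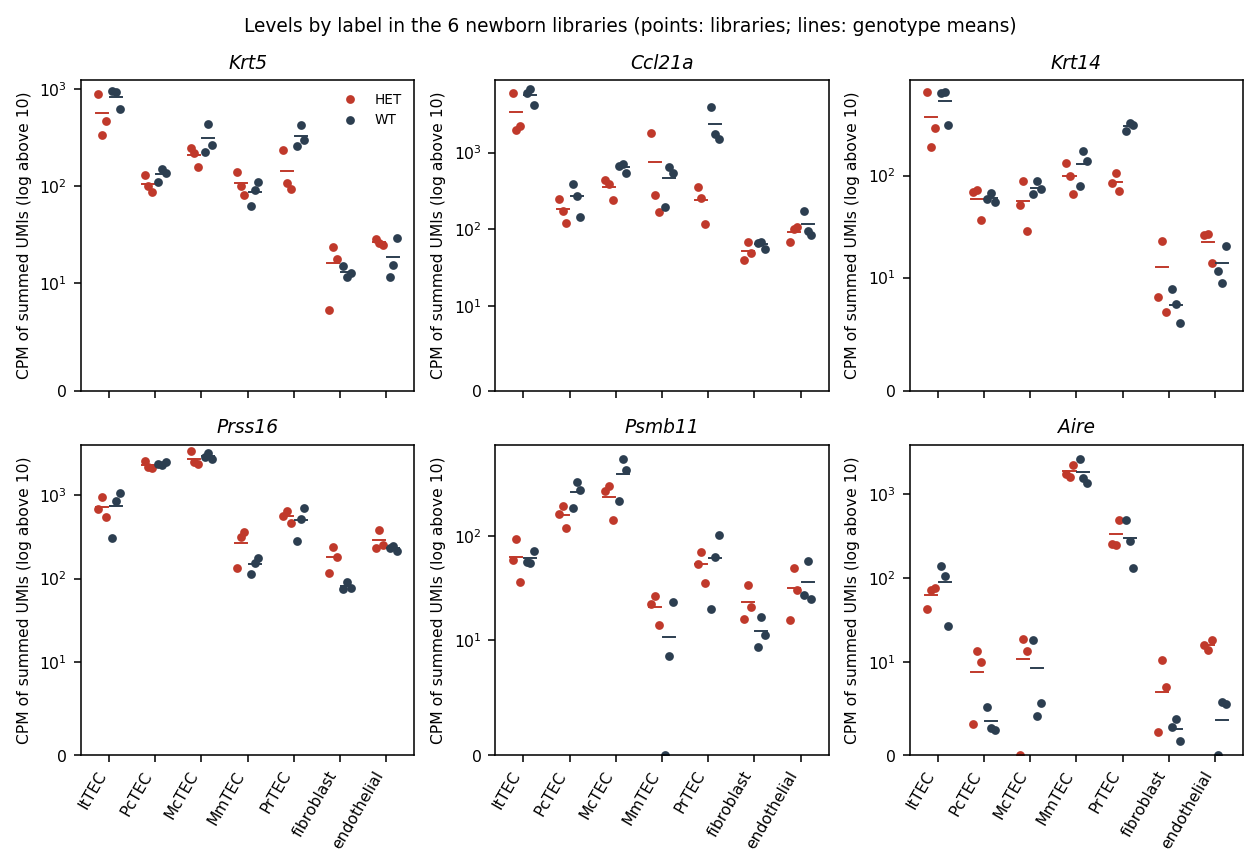
Levels of marker genes (vertical axis, CPM of summed UMIs, linear up to 10 CPM and logarithmic above) in ItTEC, the other TEC labels, fibroblasts and endothelium, each point 1 library, with HET in red and WT in dark blue and lines at their means. *Krt5* and *Ccl21a* were highest in ItTEC in every library, whereas *Prss16* and *Aire* lay far below their levels in cortical and mature medullary TEC.

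ItTEC also carried transcripts of both neighbouring compartments at lower levels. *Prss16*, a cortical serine protease involved in positive selection of CD4+ thymocytes, was at 688, 946, 541, 309, 839 and 1059 CPM in ItTEC. Its WT mean of 736 CPM lay between 2365 in PcTEC and 148.4 in MmTEC. *Psmb11*, the catalytic subunit of the thymoproteasome of cortical TEC, had a WT mean of 61.1 CPM in ItTEC, 266 in PcTEC and 10.6 in MmTEC. *Aire*, which drives the expression of tissue-restricted antigens in the medulla, was at 42.5, 71.9, 76.2, 138.7, 106 and 26.9 CPM in ItTEC, with a WT mean of 90.7 against 1834 in MmTEC and 3.62 in PcTEC. *Fezf2*, the other regulator of such antigens, was at a WT mean of 52.6 CPM in ItTEC, 599 in MmTEC and 1.73 in PcTEC. For all these genes ItTEC held an intermediate level in the WT means. *Foxn1*, the master regulator of TEC, was at 81.2 CPM, the lowest of these labels but close to PrTEC (83.8) and MmTEC (86.1). Among cell cycle genes, *Top2a* was at 61.7 and *Mki67* at 27.2 CPM, far from 456 and 263 CPM in PrTEC.

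Shares of cells with a UMI were compared after each cell had been thinned to 2000 UMIs, which left 702 of the 1166 ItTEC and only 36.1% of those of HET library 2. At this depth *Ccl21a* was detected in 66.5% ± 11.96 (SD, n = 6 libraries) of ItTEC and *Krt5* in 48.8% ± 12.2. Without thinning the shares were 63.2 and 47.0%. Pooled over libraries, *Ccl21a* was detected in 60.3% of ItTEC, 27.0% of MmTEC, 23.5% of McTEC, 14.1% of PcTEC and 12.9% of cells with endothelial labels, which include venous and lymphatic endothelium that can express the gene. It was also detected in 9.89% of fibroblasts, which should lack it. *Krt5* was detected in 42.5% of ItTEC and 4.54% of endothelial cells. *Prss16* was found in 65.2% of ItTEC, but also in 27.5% of endothelial cells and 19.5% of fibroblasts at the same depth. The part of background in that share was not tested. *Aire* was found in 6.98% of ItTEC, 79.3% of MmTEC and 0.827% of fibroblasts. The WT libraries differed among themselves, with *Ccl21a* in 82.5, 75.0 and 49.03% of ItTEC, and the HET libraries with 62.1, 59.8 and 70.8% lay within that range at 2000 UMIs. Without thinning and at 1000 UMIs, where no ItTEC were left out, HET library 2 had the lowest share of all 6 libraries (44.0 and 32.8%).

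The markers were not spread evenly over the ItTEC. Of 423 thinned ItTEC with a *Ccl21a* UMI, 257 (60.8%) also had a *Krt5* UMI, against 41 of 279 without (14.7%). By library the shares with *Krt5* were 72.2, 50.6, 65.2, 60.6, 71.9 and 56.3% among *Ccl21a*+ cells and 54.5, 13.2, 10.5, 0, 15.6 and 13.4% among the others. The *Ccl21a*+ share was higher in each of the 6 libraries, with the smallest gap in HET library 1, where 29 cells were left, and the 0 in WT library 1 came from 7 cells. *Krt14*, the partner keratin of *Krt5*, gave 43.3% among *Ccl21a*+ ItTEC and 13.6% among the others. *Prss16* showed the other order when pooled, 60.05% among *Ccl21a*+ and 73.1% among the rest, but in HET library 2 and WT library 1 it was more frequent among *Ccl21a*+ cells at 2000 UMIs, though not at 1000 UMIs. *Aire* was found in 6.62 and 7.53%. Hence 238 of the 702 ItTEC had a UMI of neither *Ccl21a* nor *Krt5* at this depth, which limits detection and does not show that they lacked the transcripts.

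**Figure D2:**
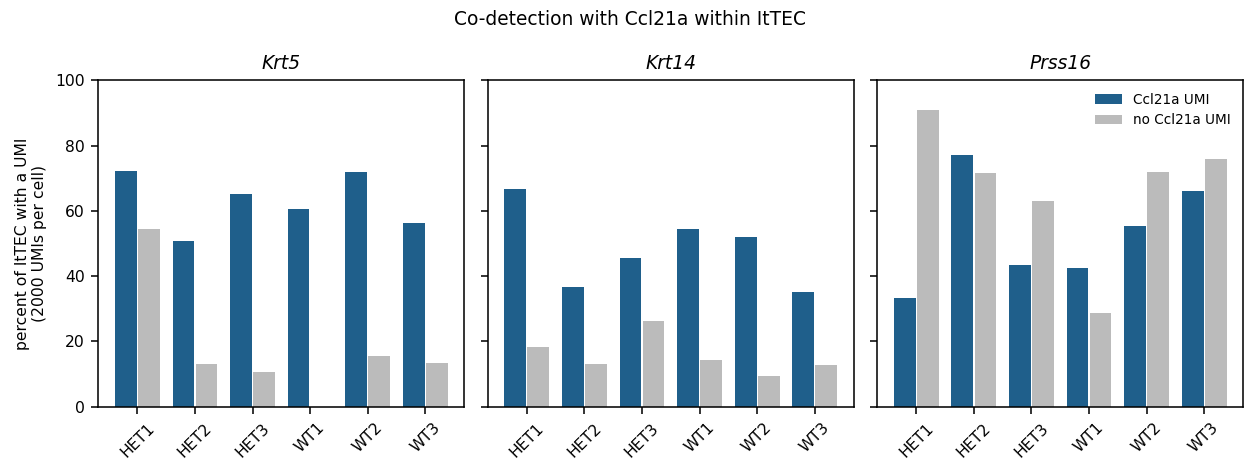
Percentage of ItTEC with a UMI of *Krt5*, *Krt14* or *Prss16* (vertical axis) in each library, with blue bars for cells with a *Ccl21a* UMI and grey bars for cells without, each cell thinned to 2000 UMIs. *Krt5* and *Krt14* were more frequent among *Ccl21a*+ ItTEC in every library, and *Prss16* was so only in HET library 2 and WT library 1.

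Next, the transcripts that were highest in ItTEC were listed from the WT libraries. The other labels compared were PcTEC, McTEC, MmTEC and PrTEC. The labels nTEC, PAmTEC, sTEC and TlTEC had fewer than 20 cells in at least 1 library and were left out, so a gene called highest here may be higher in one of them. Of 1848 genes with at least 100 CPM in WT ItTEC, 8.01% were highest in ItTEC in each WT library, and the 25 with the largest fold over the highest other TEC label are described. At the lower edge of the 25, *Celf2* had a log2 ratio of 0.89, and the first genes left out, *Rrad* and *Chst2*, had 0.87 and 0.86. In the HET libraries 15 of the 25 were again highest in ItTEC each time. The highest other label was PrTEC for 9 genes, McTEC for 8, MmTEC for 5 and PcTEC for 3.

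*Tgfbi* (chr13:56609523-56639562), a secreted matrix protein induced by TGF-β, had the largest fold of 4.50 over PrTEC. It was at 204, 35.9, 108.3, 208, 216 and 147.7 CPM in ItTEC, with no more than 69.2 CPM in any other of these labels and libraries. *Il2ra* (chr2:11642807-11693193), the α chain of the IL-2 receptor, followed with 3.86-fold over McTEC and was at 50.9, 29.5, 56.1, 138.7, 124.2 and 42.8 CPM. WT libraries 1 and 2 were high and WT library 3 lay within the HET range. *Pthlh*, the parathyroid hormone-related peptide, was 2.90-fold over PcTEC at 76.4, 28.2, 40.1, 145, 121 and 44.2 CPM. *Sprr2a3*, a cornified envelope protein with near-identical copies, was also 2.90-fold over the highest other label, and *Cnmd*, an antiangiogenic membrane glycoprotein, 2.62-fold. *Afap1*, an actin-filament adaptor, was 3.09-fold, and *Emp2*, a tetraspan membrane protein, 2.43-fold over the highest other label. *Skint7*, of the Skint family whose member *Skint1* selects epidermal γδ T cells, was 2.31-fold over MmTEC.

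*Krt5* itself was 2.55-fold and *Ccl21a* 2.37-fold over the highest other label. Others were genes of the heat shock response and of contractile and matrix proteins. *Hspa1a* and *Hspa1b*, inducible chaperones that are near-identical copies, were 2.505- and 2.62-fold over McTEC. *Hspa1a* was at 526, 136.01, 610, 649, 481 and 448 CPM, low in HET library 2 and similar elsewhere. Among contractile genes, *Tagln* was 2.31-fold, *Cald1* 2.22-fold and *Acta2* 1.94-fold. *Tagln* and *Acta2* are also in the mural list, whose summed level in WT was 800 to 1032 CPM in ItTEC, 288 to 439 in PcTEC, 343 to 404 in McTEC, 347 to 489 in PrTEC and 509 to 573 in MmTEC. The part of mural RNA was not tested. Among matrix genes, *Mgp* was 2.24-fold, *Col1a2* 2.07-fold, *Col6a2* 2.06-fold, *Mfap2* 2.03-fold and *Col1a1* 1.96-fold over the highest other label.

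Of the 25 genes, 7 had a higher WT mean in fibroblast labels than in ItTEC. *Col1a1*, the main chain of fibrillar collagen, was at 67.9, 810, 269, 246, 255 and 258 CPM in ItTEC, against a WT mean of 3619 CPM in fibroblasts. *Col1a2* had a WT mean of 190.9 CPM in ItTEC and 2869 in fibroblasts, and *Mgp* 458 and 1540. The summed level of the 10 fibroblast genes in ItTEC was 892, 4478, 1801, 1569, 1252 and 1856 CPM, and in PcTEC 608, 1951, 1456, 1114, 544 and 625 CPM. None of the 10 was at 0 in all ItTEC, and 6 of 8 measured members were highest in ItTEC among the TEC labels. The part of fibroblast RNA in the matrix genes of ItTEC was not tested.

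**Figure D3:**
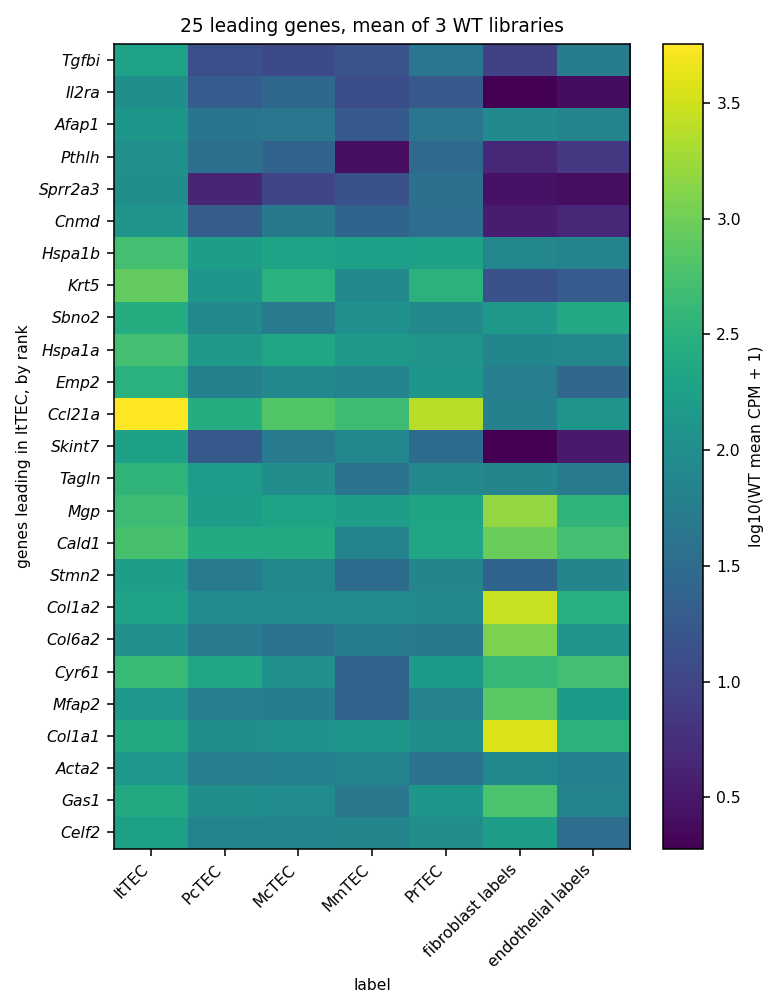
Heat map of the 25 genes that led in ItTEC (rows, by rank) over ItTEC, the other TEC labels, fibroblast and endothelial labels (columns), coloured by log10 of the WT mean CPM plus 1 (n = 3). Among TEC each row is brightest in ItTEC, with folds from 4.50 for *Tgfbi* to 1.85 for *Celf2*, and the collagen rows are brightest in fibroblasts.

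Gene lists were then read the same way in WT. Of 9380 genes with at least 20 CPM in a TEC label, 19.99% were highest in ItTEC by the WT mean and 4.83% in each WT library, with a median log2 ratio of ItTEC to the mean of the other labels of -0.02. Of 15 junctional and MHC-low medullary genes, 9 were highest in ItTEC and 5 in each library (*Krt5*, *Ccl21a*, *Krt14*, *Krt15* and *Pdpn*), with a median of 0.52. The list was built around cells of this kind, so its direction is no independent evidence. *Krt14* (chr11:100203162-100207548) was at 654, 191.2, 293, 649, 663 and 311 CPM in ItTEC, against a WT mean of 304 in PrTEC. *Pdpn*, a membrane glycoprotein long used for the junctional zone, was at 153, 121, 168.4, 138.66, 140 and 138.69 CPM, with less spread among the WT than among the HET libraries. *Trp63*, the transcription factor of epithelial progenitors, was no higher in ItTEC than in McTEC (268 and 296 CPM).

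No cortical or medullary gene was highest in ItTEC. The median log2 ratio was -0.74 over 17 cortical and -1.03 over 14 medullary genes, against a mean that includes the cortical and medullary labels themselves. Summed over the cortical list, WT ItTEC lay at 11811 to 26542 CPM, above MmTEC (3977 to 6562) and below PcTEC (28887 to 44393). Summed over the medullary list, WT ItTEC lay at 1069 to 1424 CPM, above PcTEC (737 to 916) and below MmTEC (4721 to 5119). *Ccl25* and *Cxcl12*, chemokines that attract thymocyte progenitors to the cortex, were at WT means of 506 and 335 CPM in ItTEC and 2015 and 934 in PcTEC. *Dll4*, the Notch ligand that commits progenitors to the T lineage, was at 22.4 CPM in ItTEC and 55.7 in PcTEC. Of the 11 genes for presentation by MHC class II none was highest in ItTEC (-0.50). *H2-Ab1* was at 2633 CPM in ItTEC, near 2732 in McTEC and below 6032 in MmTEC. Of 20 cell cycle genes only 1 was highest in ItTEC (-1.27), against a mean that includes PrTEC. Their sum, over the 22 genes listed, was 1477 to 1884 CPM in WT ItTEC, above PcTEC (1203 to 1328) and McTEC (786 to 933). It was 1836 to 2583 CPM in MmTEC and 6400 to 8585 CPM in PrTEC. Of 14 antioxidant genes none was highest in ItTEC (-0.34).

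Of the lists for adhesion and the matrix, the first gave 12 of 17 basement membrane and hemidesmosome genes highest in ItTEC (median 0.61), with *Col4a1*, *Hspg2*, *Lama3* and *Lamb1* highest in every WT library. *Col4a1*, of the collagen of basement membranes, was at 654, 879, 882, 561, 660 and 546 CPM. *Lama3*, the laminin chain that anchors basal keratinocytes, was at 93.4, 70.6, 172.5, 145, 142 and 102.8 CPM. Summed over the list, WT ItTEC lay at 3132, 3769 and 2742 CPM and PcTEC at 3428, 3092 and 2336 CPM, so PcTEC was higher in WT library 1. The sums were 4608 to 5813 CPM in WT fibroblast labels and 7121 to 8581 CPM in WT endothelial labels. Of 11 matrix protease and inhibitor genes, 9 were highest in ItTEC (0.61), 3 of them in every WT library. Their sum, over the 12 genes listed, was 1864 to 1994 CPM in WT ItTEC, 1623 to 1775 in PcTEC and 3647 to 4061 in fibroblast labels. The fibroblast and mural marker lists were also higher in ItTEC than in the mean of the other TEC labels (medians 0.96 and 0.68), and their part in these lists was not tested.

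Of 18 TGF-β and BMP pathway genes, 10 were highest in ItTEC (median 0.64). *Fst*, a secreted antagonist of activin, was at 25.5, 18.0, 80.2, 69.3, 114.5 and 40.7 CPM in ItTEC, with a WT mean of 74.9 against at most 19.3 in the other labels. *Bmpr1a*, a BMP receptor, *Id3*, a target of BMP signals, and *Skil*, which restrains SMAD proteins, were also highest in each WT library. Of 11 Notch pathway genes 6 were highest in ItTEC (0.50). These included the ligand *Jag1* (91.2 CPM against at most 48.4), the receptor *Notch1* (69.2 against at most 48.0) and the feedback target *Nrarp* (28.2 against at most 14.9). Summed in WT, the listed Notch genes were at 834 to 1026 CPM in ItTEC, 995 to 1197 in endothelial and 693 to 862 in fibroblast labels. The TGF-β and BMP genes were at 916 to 1374, 1525 to 1762 and 1330 to 1546 CPM. The part of other cell types in both lists was not tested. Stress and immediate early genes were highest in ItTEC for 10 of 17 (0.73). *Jun* was at 2822 CPM in ItTEC and 1963 in PcTEC, but *Atf3* was higher in PcTEC, at 564 against 435 CPM. Their summed level within ItTEC, 19426, 11702, 15553, 20212, 15633 and 14005 CPM, was lowest in HET library 2. In PcTEC of the WT libraries it was 15929, 14680 and 15615 CPM, above ItTEC in WT library 3.

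The counts of the other lists varied. Of 17 interferon-stimulated genes 7 were highest in ItTEC (median 0.41), and only *Irf7* in every WT library. Their sum, over the 18 genes listed, was 6990, 7158 and 7720 CPM in WT ItTEC and 6709, 7126 and 8440 CPM in PcTEC. In MmTEC, which enters the mean of the other labels, it was 2142 to 2433 CPM. Chemokines and thymopoietic cytokines gave 3 of 16, with *Ccl21a* and *Cx3cl1* in every library. Keratins gave 4 of 11, and *Krt8*, the keratin of cortical TEC, was lower in ItTEC (1478 CPM) than in PcTEC (2962). Pharyngeal pouch and TEC transcription factors gave 3 of 14, with *Sox4* at 861 and *Grhl2* at 76.6 CPM highest in every library. Wnt genes gave 2 of 13, including *Sfrp1*, a secreted Wnt antagonist, at 178 CPM. FGF genes gave 2 of 8, NF-κB and TNF receptor genes 1 of 16, MHC class I and proteasome genes 3 of 15, genes of the 22q11.2-syntenic region 4 of 21 and respiratory chain genes 5 of 19. Small lists held *Dclk1* of the tuft genes (1 of 1), *Stmn2* and *Scg5* of the neuroendocrine genes (2 of 6) and 1 of 3 post-Aire genes. None of 2 thymocyte and 4 myeloid genes that reached 20 CPM was highest in ItTEC, and no parathyroid gene reached that level. Endothelial genes gave 2 of 4 (0.50), mural genes 5 of 8 (0.68) and red blood cell genes 1 of 4.

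The frequency of ItTEC was then compared between genotypes. They made up 4.80, 14.2 and 7.40% of TEC in HET and 9.16, 12.3 and 18.5% in WT, with means of 8.81% ± 4.87 and 13.3% ± 4.73 (SD, n = 3 each). The ranges overlapped, with HET library 2 above 2 of the WT libraries. The log2 ratio of HET to WT was -0.58 (SE 0.47) and did not pass edgeR's quasi-likelihood test of cell numbers (Benjamini-Hochberg adjusted p = 0.481). An exact two-sided permutation test of the difference of -4.48 percentage points gave p = 0.4, where 0.1 is the smallest that 3 against 3 allows. Without HET library 2 the log2 ratio was -1.13 (SE 0.39, unadjusted p = 0.00843, adjusted p = 0.0759 by the same edgeR test). It was -0.30 without HET library 1 and -0.27 without WT library 3 (unadjusted p = 0.536 and 0.611 by the same edgeR test). The fitted difference was within the spread between libraries.

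**Figure D4:**
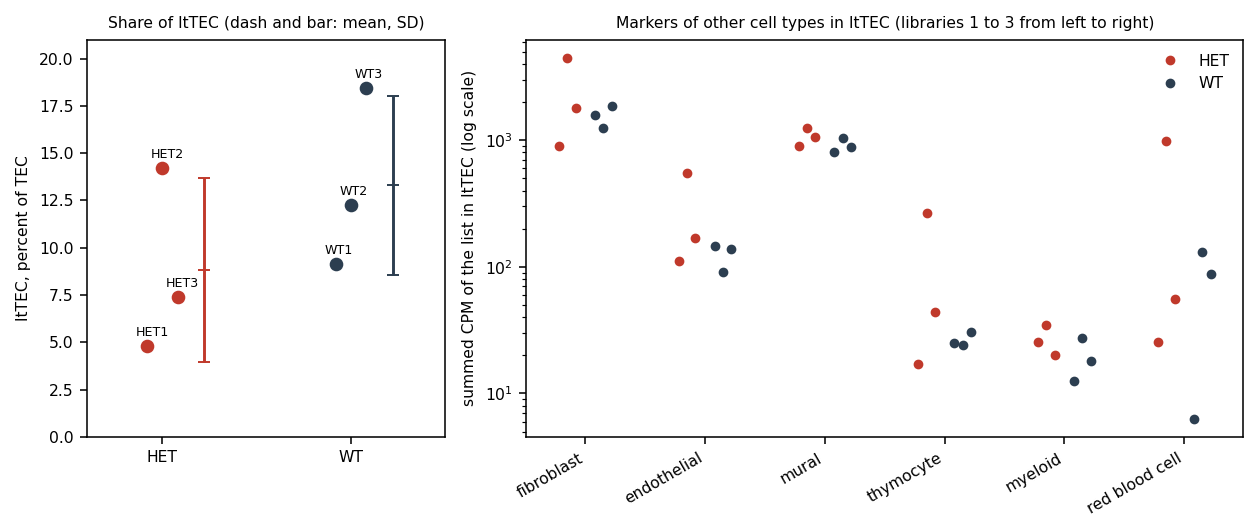
ItTEC as a percentage of TEC by library, and the summed level (CPM) in ItTEC of marker genes of other cell types, each point 1 library (HET red, WT dark blue, libraries 1 to 3 from left to right), with the mean and SD of the share at the side and a logarithmic axis for the sums. HET library 2 had the highest share of the HET libraries (14.2%) and the highest fibroblast, endothelial and red blood cell sums of all 6.

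Within ItTEC no transcript passed the test between genotypes. Of 7190 genes tested with edgeR's quasi-likelihood test, 0 (0%) had an adjusted p below 0.05, 217 had an unadjusted p below 0.05, and DESeq2 called 1. That gene was *Meg3*, a long noncoding RNA (log2 fold change 1.69), here named after its value was seen. The median log2 fold change over all genes was 0.02. The largest sums of UMIs, and thus the least counting error, were those of HET library 2 and WT libraries 2 and 3.

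Several ItTEC genes were lower in the HET mean without passing that test. The leading genes among them had been chosen for a high level in the WT libraries, which favours a lower HET value. *Krt5* differed by a log2 fold change of -0.56 (SE 0.37) and *Ccl21a* by -0.71 (SE 0.46), and for both HET library 1 lay at the level of WT. *Tgfbi* differed by -0.89 (SE 0.44), with HET libraries 2 and 3 below all WT libraries and HET library 1 among them. *Il2ra* differed by -1.10 (SE 0.45) and *Pthlh* by -1.14 (SE 0.46), and in both WT library 3 lay within the HET range. *Sprr2a3* was at 59.4, 19.2, 56.1, 63.0, 154.8 and 89.7 CPM, with -1.44 (SE 0.44), and its groups were kept apart by less than 1 UMI, since HET library 1 held 7 and WT library 1 held 10. The adjusted p was 0.9997 for each of these 6 genes in edgeR's quasi-likelihood test.

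Over all genes tested, 3815 had a positive and 3375 a negative fold change. Of the 25 leading genes, chosen from the WT libraries alone, 16 had a negative fold change (median -0.15) and 9 a positive one, so this count is no evidence of a direction. All 6 keratins tested were lower in HET (median -0.49), as were all 8 medullary genes (-0.39), all 10 MHC class II genes (-0.23), 13 of 14 MHC class I and proteasome genes (-0.43), 13 of 16 interferon-stimulated genes (-0.28) and 8 of 12 junctional genes (-0.44). Other lists had mostly positive values, with 7 of 8 FGF genes (0.42), 12 of 16 basement membrane genes (0.21), 7 of 10 matrix protease and inhibitor genes (0.12) and 5 of 8 mural genes (0.75). None of these genes was called. All 8 fibroblast genes tested (0.80) and all 3 endothelial genes (1.74) had positive fold changes, and the sums of both lists were highest in HET library 2. *Col3a1*, a fibrillar collagen, was at 272, 1356, 610, 391, 329 and 500 CPM, with HET library 1 below every WT library and HET library 2 far above. The red blood cell sum of 25.5, 987, 56.1, 6.30, 130.6 and 87.6 CPM and the thymocyte sum of 17.0, 268, 44.1, 25.2, 24.2 and 30.4 CPM had the same outlying library. The myeloid sum was 12.6 to 34.6 CPM, with 1 of the 9 genes at 0 throughout. The part of these transcripts in the fold changes was not tested.

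Whether the genotype acted differently in ItTEC than in the other TEC was tested as an interaction, with library as a block. Against PcTEC 0 of 11419 genes (0%) were called by edgeR's quasi-likelihood test, with 806 at an unadjusted p below 0.05 and 0 by DESeq2, but 12 when WT library 3 was left out. Against McTEC 2 of 9207 (0.0217%) were called. *Pla2g7*, a secreted phospholipase, was at 0, 28.2, 4.01, 25.2, 11.3 and 17.9 CPM in ItTEC and 10.3, 151.1, 5.02, 7.35, 4.18 and 6.10 CPM in McTEC. *Pth*, the parathyroid hormone, was at 0, 445, 0, 0, 0 and 23.5 CPM in ItTEC and 0, 1777, 3.35, 0, 1.04 and 14.5 CPM in McTEC. The counts of *Pth* in both labels, and of *Pla2g7* in McTEC, lay mostly in HET library 2. Neither gene was called without HET library 2, without WT library 3, without the library block or by DESeq2.

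Against MmTEC 15 of 7666 genes (0.196%) were called, 13 with a more positive HET effect in ItTEC and 2 with a more negative one. *Il2ra* was a leading gene of ItTEC and 1 of the latter 2. In MmTEC it was at 81.9, 19.2, 38.5, 20.8, 8.59 and 6.79 CPM, resting on 4 to 11 UMIs per library, while in ItTEC WT libraries 1 and 2 held the highest values and WT library 3 lay within the HET range. The effects differed by -2.69 (SE 0.57, adjusted p = 0.0457 in edgeR's quasi-likelihood test). The other was *Ctsl*, the cathepsin that cuts the invariant chain in cortical TEC. It was at 14723, 12051, 7789, 7822, 13909 and 17314 CPM in ItTEC, the genotypes overlapping, and at 2903, 3751, 2265, 1094, 1310 and 1607 CPM in MmTEC, where each HET library lay above each WT library. The effects differed by -1.14 (SE 0.24, adjusted p = 0.0424 in the same test). In MmTEC alone *Ctsl* did not pass between genotypes (log2 fold change 1.07, adjusted p = 0.276 by edgeR), and the share of all genes so separated was not counted. The cortical list, which holds *Ctsl*, summed to 2874 to 5465 CPM in HET and 2235 to 2837 CPM in WT fibroblast labels. In endothelial labels these sums overlapped, at 4334 to 8155 and 4251 to 5842 CPM. The part of background in MmTEC was not tested.

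The genes with the smallest p among the other 13 were *Cxcl13*, *Car4*, *Cd52*, *Adipoq* and *Saa3*. *Cxcl13*, a B cell chemokine, was at 8.49, 51.3, 28.1, 12.6, 4.84 and 29.7 CPM in ItTEC and 44.7, 250, 45.5, 219, 271 and 880 CPM in MmTEC, a difference of 3.29 (SE 0.47, adjusted p = 0.00283 by edgeR). *Cd52* was at 12.6 to 75.7 CPM in ItTEC and 275 to 1326 CPM in MmTEC, and the remaining 3 were below 80 CPM in ItTEC. The HET and WT means in MmTEC were 377 and 1003 CPM for *Cd52* and 52.5 and 256 for *Saa3*. They were 21.9 and 66.2 for *Car4* and 17.4 and 26.6 for *Adipoq*. For all 13 the HET mean lay below the WT mean in MmTEC and above it in ItTEC, where none was called between genotypes. *Adipoq* and *Saa3* rested on 0 to 25 UMIs per library in ItTEC and *Car4* on 1 to 30. None of the 15 was called without HET library 2 or without the library block, and DESeq2 called 1. The count was 29 without HET library 1, 43 without WT library 1 and 3 without WT library 3.

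The genes that led in ItTEC were last read in sorted cells that had taken no part in the labelling. The fractions hold other TEC as well, and in bulk RNA fewer cells of a type and less RNA per cell cannot be told apart. At P0, 4049 of 14901 genes (27.2%) were higher in mTEC than in cTEC and 2432 (16.3%) were lower, with a median log2 fold change of 0.13. Of the 23 leading genes tested, 11 were higher in mTEC, 3 were lower (*Afap1*, *Cald1* and *Mfap2*) and 9 did not pass, with a median of 0.74. *Krt5* was at 98.2 to 140 CPM (median 111) in cTEC and 159 to 329 (228) in mTEC, the groups not overlapping, with a log2 fold change of 1.11 (SE 0.19, adjusted p = 0.000181). *Ccl21a* was at 75.9 to 368 CPM (median 233) and 724 to 2413 (1257), with 2.75 (SE 0.35, adjusted p = 1.43e-05). *Tgfbi* was at 6.46 to 27.5 and 28.2 to 75.3 CPM, with 1.90 (SE 0.33). *Il2ra* was at 36.3 to 121 and 188 to 297 CPM, with 1.83 (SE 0.26). For each of these 4 genes all mTEC libraries lay above all cTEC libraries, and the share of all genes so separated was not counted. These are edgeR's quasi-likelihood tests over 6 against 6 libraries. The labels do not say whether the fractions compared came from the same mice, and no pairing was used.

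Among the other leading genes at P0, *Emp2*, *Pthlh*, *Sprr2a3*, *Sbno2*, *Skint7*, *Acta2* and *Col1a1* were also called higher in mTEC. *Col1a1* was at or below 0.0970 CPM in every cTEC library and at 135 to 193 CPM in mTEC, whereas *Col1a2*, its partner chain, was at 7.96 to 24.9 CPM in mTEC and did not pass. *Afap1* was lower in mTEC (log2 -0.71, SE 0.18), with 47.1 to 74.9 CPM against 77.8 to 152 in cTEC. *Trp63* was not a leading gene and was lower in mTEC, at 141 to 455 CPM against 1249 to 2182 in cTEC. In the fixed lists, all 15 medullary genes were higher and all 17 cortical genes lower in mTEC. Of the 15 junctional and MHC-low medullary genes 10 were higher and 2 lower. The medullary, cortical and junctional lists were chosen as markers of these cells, so their direction is no independent evidence. Of 17 basement membrane genes 2 were higher and 7 lower, and of 18 interferon-stimulated genes 0 and 10. Of the lists of other cell types, 8 of 8 myeloid, 5 of 9 fibroblast, 4 of 6 endothelial, 3 of 6 mural, 2 of 2 red blood cell and 5 of 14 thymocyte genes tested were higher in mTEC. Their part in the calls of *Col1a1* and *Acta2* was not tested.

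At 4 weeks, 963 of 15443 genes (6.24%) were higher in mTEClo than in mTEChi and 1573 (10.2%) were lower, with a median of -0.10. Of the 24 leading genes tested, 14 were higher in mTEClo, only *Cnmd* was lower and 9 did not pass, with a median of 1.83. *Krt5* was at 984 to 1806 CPM (median 1326) in mTEClo and 79.7 to 138.7 (112.8) in mTEChi, with a log2 fold change of 3.37 (SE 0.19, adjusted p = 8.16e-07 by edgeR). *Ccl21a* was at 7771 to 26967 CPM (15732) and 502 to 672 (569), with 4.64 (SE 0.31). *Krt14* was at 723 to 1870 and 212 to 283 CPM, with 2.03 (SE 0.21). The lowest mTEClo library lay above the highest mTEChi library for all 3 genes, and the share of all genes so separated was not counted.

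Other leading genes also had large folds at 4 weeks. *Gas1*, a membrane receptor that arrests growth, was at 52.4 to 180 CPM in mTEClo and 0.945 to 5.51 in mTEChi (log2 5.27, SE 0.50). *Col6a2* was at 202 to 435 and 2.99 to 14.7 CPM (4.83, SE 0.41), and *Tagln* at 53.5 to 147 and 1.23 to 6.71 CPM (4.59, SE 0.47). *Tgfbi* was at 121 to 347 and 9.72 to 20.6 CPM (3.70, SE 0.29), *Emp2* at 173.5 to 334 and 41.8 to 61.7 CPM (2.03, SE 0.17) and *Pthlh* at 113.1 to 203 and 23.9 to 38.6 CPM (2.01, SE 0.20). These 6 were named for their large folds. Their ranges did not overlap, and the share of all genes without overlap was not counted. *Il2ra* did not pass (0.21, SE 0.24), at 94.3 to 267 and 78.8 to 130.7 CPM. *Cnmd* was at 10.4 to 43.5 CPM in mTEClo and 160.6 to 249 in mTEChi (-3.29, SE 0.33). *Col1a1* was at 90.2 to 181 CPM in mTEChi but reached 422 CPM in a single mTEClo library, the next holding 23.01 CPM.

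**Figure D5:**
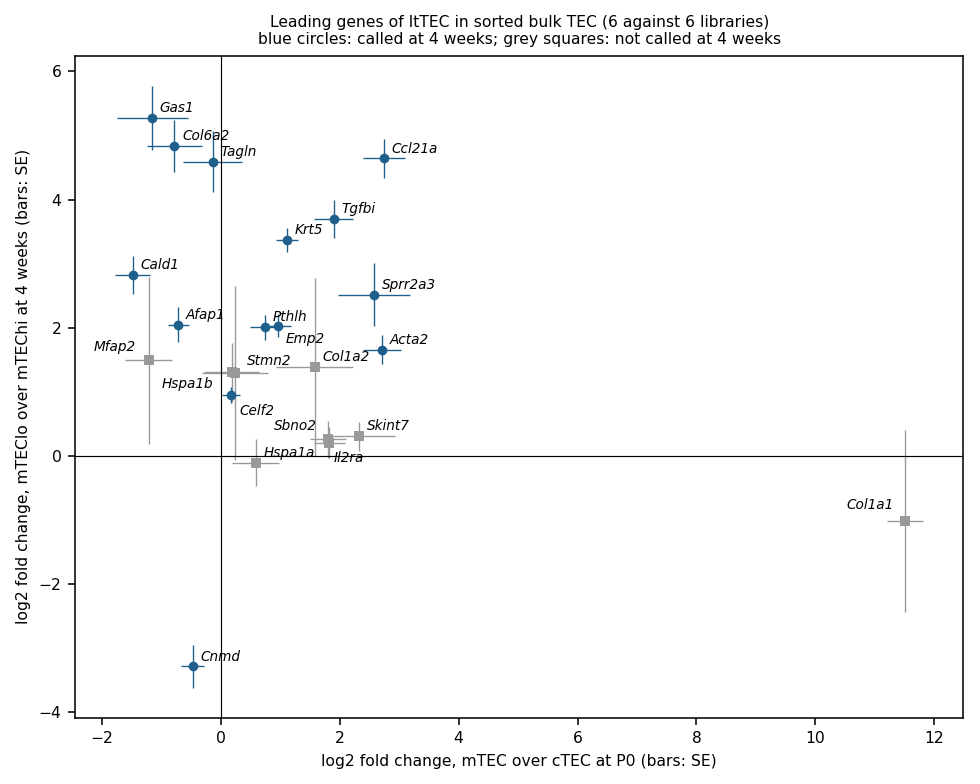
Log2 fold changes (bars, SE) of the leading ItTEC genes in sorted TEC, mTEC over cTEC at P0 on the horizontal axis and mTEClo over mTEChi at 4 weeks on the vertical axis, with blue circles for genes called at 4 weeks and grey squares for the others. *Krt5*, *Ccl21a* and *Tgfbi* were called higher in both comparisons, *Cnmd* was the only leading gene called lower in mTEClo, and the far position of *Col1a1* depends on counts near 0 in cTEC.

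The lists gave the following counts at 4 weeks. Of the 15 junctional and MHC-low medullary genes 11 were higher in mTEClo and 2 lower (median 0.94). *Pdpn* of this list was at 85.4 to 189 CPM against 12.1 to 25.8 in mTEChi. The list was built around MHC-low medullary cells, so its direction here is no independent evidence. Of 17 basement membrane genes 11 were higher and 1 lower (1.07), with *Itgb4*, the integrin chain of hemidesmosomes, at 93.5 to 243 and 26.9 to 52.4 CPM. Of 18 TGF-β and BMP pathway genes 8 were higher and 2 lower (0.71), with *Fst* at 32.9 to 131.3 and 1.43 to 4.36 CPM. Of 18 interferon-stimulated genes 11 were higher and none lower. Of 15 medullary genes 9 were lower and none higher, *Aire* being at 16.0 to 96.1 and 193 to 284 CPM. This list too was chosen from known markers, so its direction is no independent evidence. MHC class II genes were lower for 9 of 11, which the sort itself would fix if its gate was MHC class II. Among lists of other cell types, no fibroblast gene was called of 8 tested, while 3 of 8 mural genes and 4 of 6 red blood cell genes were higher in mTEClo. *Tagln* and *Acta2* belong to the mural list.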

How the data were processed

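Single cells were captured with the 10x 3′ kit after fixation in RNAprotect, and the authors deposited the UMI counts of every cell, made with Cell Ranger 3.1.0 per the labels, together with its cell type label. The authors removed doublets with DoubletFinder and kept cells with over 1000 genes, yet 19621 of 21451 deposited cells exceeded that number. Bulk libraries were deposited as read counts per Ensembl gene, and the submitters' processing notes name STAR 2.5.3a, HTSeq and the builds mm10 and GRCh38. Entries of no gene held 10.8 to 15.6% of bulk counts and were left out, which left 7518907 to 14454727 counts per library. Symbols were found for 37607 of 39179 IDs, and *Cyr61* was not matched. Positions are from GENCODE M21 on GRCm38.

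UMIs of the ItTEC of each library were summed and tested with edgeR 4.0.16 (R 4.3.3) in its quasi-likelihood test with TMM scaling and a filter on low counts, Benjamini-Hochberg adjusted over all genes tested, at a threshold of 0.05. DESeq2 1.42.0 was an alternative. TEC labels with at least 20 cells in every library were compared. The alternatives were another scaling, no filter on low counts, thinned sums, cells with over 1000 genes, a replicate block and leaving out each library. The scripts were tested on simulated data. Named genes were the markers, the targeted genes, all called genes, the 25 leading genes, the 5 interaction genes with the smallest p and the members of 31 gene lists (416 of 419 genes in the file). The members and lists were chosen with earlier results of these data known. Replicate numbers were not used to pair the libraries in the main tests. The correlations of same-numbered HET and WT libraries were 0.07, -0.18 and -0.32. The largest of any HET and WT pair was 0.47, for HET library 2 and WT library 3. With 3 libraries per genotype these values cannot exclude shared litters or batches. The study's methods give 3 mice of each genotype for the single-cell libraries. For the bulk libraries the labels name no mice, so p-values there measure the spread between libraries. The title prefixes of the bulk libraries are not explained in the labels and were tried as a term.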

Additional observations from a re-analysis of the deposited data

Results flagged for a closer look

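The effect of genotype differed between ItTEC and another TEC label for 9 genes of those described, by the interaction test. The same test called 2 genes against McTEC and 15 against MmTEC, and none of them was called without HET library 2 or without the library block. DESeq2 called 0 of the 2 and 1 of the 15. The log2 effect in ItTEC minus that in McTEC was -3.77 for *Pla2g7* and -2.50 for *Pth*. Against MmTEC the difference was 3.29 for *Cxcl13*, 3.52 for *Car4*, 2.61 for *Cd52*, 5.42 for *Adipoq*, 4.77 for *Saa3*, -1.14 for *Ctsl* and -2.69 for *Il2ra*. *Adipoq*, an adipokine, was at 76.4, 32.1 and 8.02 CPM in HET ItTEC and 0, 0 and 2.76 CPM in WT ItTEC. These values rest on 9, 25 and 2 UMIs in HET and 0, 0 and 4 in WT, and the gene was too low to test in ItTEC alone. The share of all genes so separated was not counted. Its means in MmTEC were 17.4 CPM in HET and 26.6 CPM in WT.

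In the sorted cells, 15 of 96 sets of 6 libraries (24 leading genes in 4 groups) had a library far from the others. The rule set the gap to the next library against the range, with a nominal rate of 1 in 20 for normal values. CPM need not be normal and the same libraries recur over the sets, so the count was not tested against that rate. In mTEClo at 4 weeks the highest library was apart for *Il2ra* (267 CPM, the next 154), *Pthlh* (203, the next 142), *Col6a2* (435, the next 289) and *Col1a1* (422, the next 23.01), and the lowest for *Hspa1b* (8.83, the next 25.3) and *Hspa1a* (103.2, the next 301). In mTEChi it was the lowest for *Hspa1a* (69.6 CPM) and the highest for *Cnmd* (249), *Skint7* (74.3) and *Mgp* (1.41). At P0 the highest mTEC library was apart for *Sprr2a3* (22.4 CPM) and *Cnmd* (184.7). In cTEC it was the highest for *Col6a2* (50.8 CPM) and *Gas1* (114) and the lowest for *Celf2* (164).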

How the results depend on the processing

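The count of 0 genes between genotypes in ItTEC became 1 with DESeq2, 35 without the filter on low counts, and 0 to 2 when a library was left out. With the replicate block 1 gene was called (*Car3*), and the share of ItTEC had a log2 ratio of -0.67 (adjusted p = 0.672 by edgeR). The labels do not say whether replicate numbers pair these libraries. The interaction calls became 5 against PcTEC and 70 against MmTEC without the filter. Without the library block 0 were called against McTEC and 0 against MmTEC, and with DESeq2 0 and 1. Leaving out a library gave 0 to 12 calls against PcTEC, 0 to 2 against McTEC (0 without HET library 2 and 0 without WT library 3) and 0 to 43 against MmTEC (29 without HET library 1, 0 without HET library 2, 43 without WT library 1 and 3 without WT library 3). The log2 difference of *Pth* against McTEC ran from -2.52 to 0.14 over libraries left out and reversed without WT library 3. The log2 ratio of the ItTEC share ran from -1.13 to -0.27 over libraries left out. The genes highest in ItTEC in every library were 291 with a minimum of 50 CPM and 74 from the HET libraries, which held 11 of the 25 named genes, and 203 from HET libraries 1 and 3, an alternative chosen after seeing the data. The 11 also had to reach a HET mean of 100 CPM in ItTEC, which was not asked of the 15 of 25 given above. Thinned to 1000 UMIs, *Ccl21a* was detected in 53.8% and *Krt5* in 31.9% of ItTEC. The bulk calls at 4 weeks were 3809 without the filter and 2536 with it, and *Col1a2* there reversed with the title prefix as a term (-0.22, adjusted p = 0.958 by edgeR). Where no construction shows it, the cause was not tested. Of 448 alternative values for single genes and markers, 402 were counted as unchanged. For tested genes this meant the same direction and side of the threshold. For detection shares it meant a mean within 1 SD of the main value. Depth limits ItTEC most in HET library 1, whose 39 cells hold 117778 UMIs.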
